A study of Mus musculus with 6 samples.

Results

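Phase II conjugation enzymes were examined across 6 RNA-seq libraries of Hepa1-6, an established mouse hepatoma line from the C57/L strain. The rule for the genes used their symbols and no measured value. They were all rows of the deposited tables whose symbol starts with Ugt1a, Ugt2, Ugt3, Mgst or Sult, or with Gst followed by a class letter (a, m, p, t, k, o or z) and a digit. This gave 66 of 25078 genes: 22 cytosolic glutathione transferases (GST), 3 microsomal glutathione transferases (MGST), 21 sulfotransferases (SULT) and 20 UDP-glucuronosyltransferases (UGT). The wt library came from parental cells that carried no vector (n = 1). The scr control libraries came from cells transduced with lentivirus carrying a scramble vector (n = 2, replicates 25-2 and 50-1), and the knockdown libraries from cells transduced with a midnolin shRNA vector (n = 3, replicates 25-3, 50-2 and 50-5). Cells of the scr and knockdown groups were selected with puromycin and expanded from single-cell colonies, so each of these libraries may stand for 1 clone. The labels do not name the clones or say what 25 and 50 mean. The p-values below therefore measure only the spread between these libraries.

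In the liver, conjugation enzymes attach a polar group to drugs, bile pigments, steroids and reactive products of phase I oxidation, so that the product can be pumped out of the cell. Glutathione transferases add glutathione to electrophiles, UGT enzymes in the endoplasmic reticulum add glucuronic acid from UDP-glucuronate, and sulfotransferases add sulfate from the donor PAPS. Many of the GST, SULT and UGT genes lie in tandem clusters, and many are known in liver to respond to the transcription factor Nrf2 or to nuclear receptors.

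Counts on genes summed to between 25586301 and 33119710 per library, of which the ribosomal transcript Rn45s took 10.1% to 13.1%. Levels are given as RPKM, the reads on a gene per exon length and library size, scaled for library composition by the authors. Midn, the targeted gene, had an RPKM of 60.5 in wt, 59.6 and 50.8 in scr, and 20.3, 21.8 and 22.1 in knockdown, a log2 fold change of -1.38 (FDR 0.00777, test as below). Hepatocyte markers were present in all libraries, with 11 of 12 over an RPKM of 1 in at least 1 library and Serpina1a at 0 in all 6. Their summed RPKM was 4686 and 5605 in scr and 2253 to 3442 in knockdown. Alb had 1877 and 2804 in scr and 336, 62.7 and 20.9 in knockdown. Without Alb the sum was 2810 and 2801 in scr and 3106, 3257 and 2233 in knockdown. Of 10 hepatocyte markers tested, Ttr was called, lower (-6.68, FDR 0.0121). DESeq2 called 5, Apob and Krt18 higher and Alb, Fgb and Ttr lower, against 20.1% of all genes called. The sum of 6 macrophage markers was 4.37 and 4.74 in scr and 9.12 to 14.1 in knockdown, most of it Cd68, which DESeq2 called higher, with Clec4f at 0. Of 6 cholangiocyte markers 4 were tested and Krt7 was called, lower (-3.44, FDR 0.0133), with an RPKM of 21.3 and 13.9 in scr and 0.858 to 2.15 in knockdown. Spp1 made up most of their sum. Of 6 fibroblast markers Dcn was abundant, at 409 to 594 in scr and knockdown and 1028 in wt, and the others were each at most 0.790 in scr and knockdown. The sum of 6 endothelial markers was at most 0.371 in scr and knockdown and 2.89 in wt. The part of these markers in the results below was not tested. In such bulk samples of a cell line, fewer cells expressing a marker and less RNA per cell cannot be told apart.

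Of the 66 conjugation enzyme genes, 12 had 0 counts in all 6 libraries and a further 13 had at most 3 counts in any library, which leaves 41 with more than 3 counts. The test of knockdown against scr covered 25 of them, those that exceeded an RPKM of 1 in any of the 5 scr and knockdown libraries (14 GST, 3 MGST, 3 SULT and 5 UGT genes). Passing was not independent of the groups, since 3 genes had an RPKM over 1 only in scr libraries, 4 only in knockdown libraries and 18 in both. A gene was called differentially expressed if it changed at least 1.5-fold in either direction with an FDR below 0.05, where the FDR is the p of the edgeR quasi-likelihood test after Benjamini-Hochberg adjustment over 11577 genes. SE stands for the standard error of a log2 fold change. By this rule 10.6% of all tested genes were called, 5.4% higher and 5.23% lower in knockdown. Among the conjugation enzyme genes, 4 of 25 were called. Gstk1, Gsto1 and Gsto2 were up-regulated in knockdown cells and Gsta3 was down-regulated. All 4 are GST genes, the class of 14 of the 25 genes tested. Gstk1 and Gsto2 exceeded an RPKM of 1 only in knockdown libraries, so they entered the test through the group in which they were higher. A further 9 genes had an unadjusted p under 0.05, for 13 of 25 in all, as had 31.5% of all genes. The median log2 fold change was -0.41 over the 25 genes and -0.0097 over all genes tested. DESeq2, on the same libraries, called 12 of the 25 genes, 6 higher and 6 lower, and 20.1% of all genes.

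**Figure D1:**
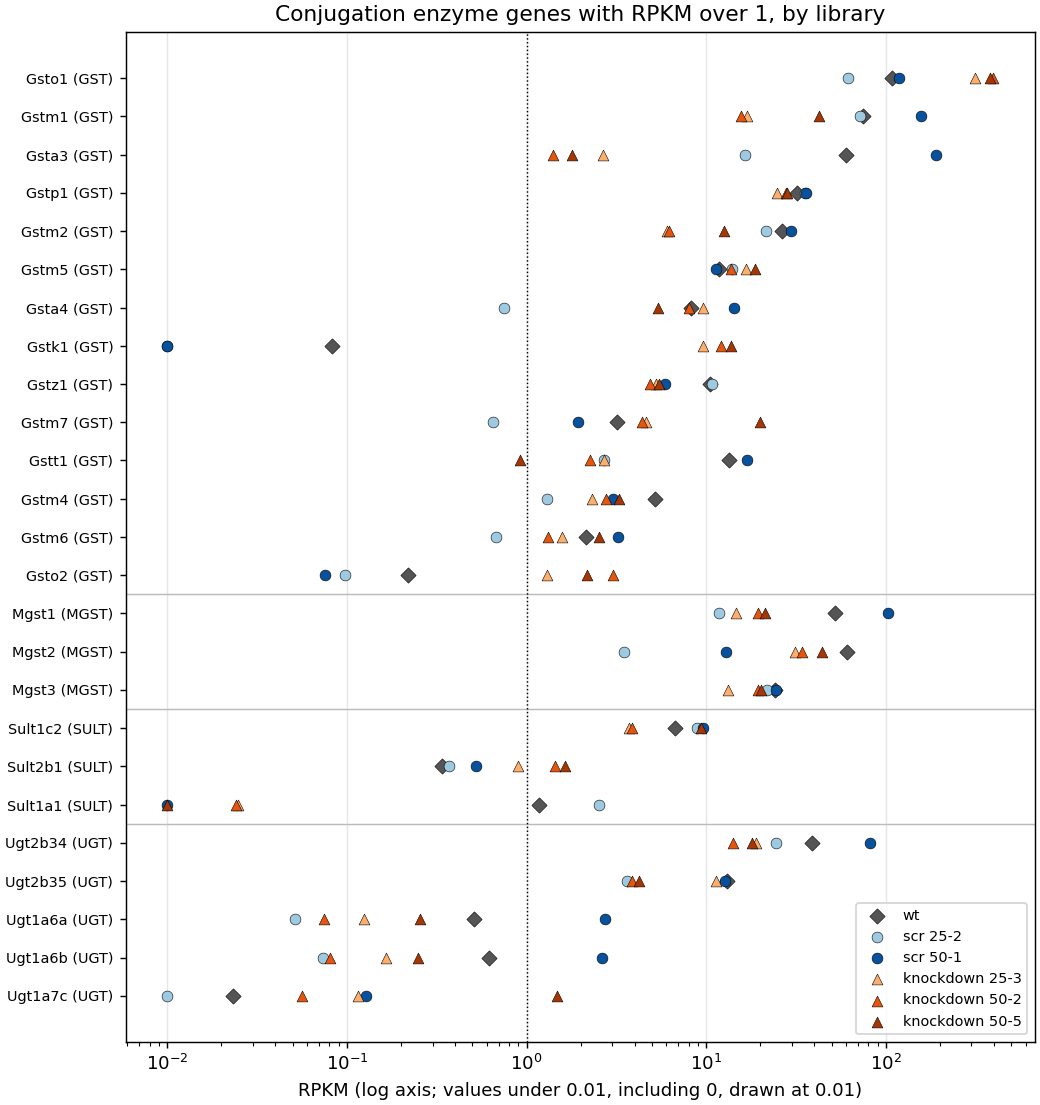
RPKM (log axis) of the 25 tested conjugation enzyme genes in each of the 6 libraries, 1 symbol per library, grouped by class and ordered by mean RPKM. The 3 knockdown libraries (triangles) lie to the right of both scr libraries (circles) for Gsto1, Gstk1 and Gsto2 and to the left for Gsta3, and for many other genes the scr libraries lie far apart.

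The 4 called genes are shown by their promoters, which hold 250 bases before and 50 after a RefSeq start site in GRCm38.p6 (mm10), 5′ to 3′ on the strand of the gene. Gsta3 is at chr1:21240335-21240634, Gstk1 at chr6:42245685-42245984, Gsto1 at chr19:47854723-47855022 and Gsto2 at chr19:47865295-47865594, all on the plus strand. Capitals mark matches to 2 motifs searched on both strands, the antioxidant response element core TGACNNNGC that Nrf2 is known to bind and the Ah receptor core GCGTG. A match to the antioxidant response element core can overlap a match to the Ah receptor core, as in the promoter of Gstm5.
Gsta3: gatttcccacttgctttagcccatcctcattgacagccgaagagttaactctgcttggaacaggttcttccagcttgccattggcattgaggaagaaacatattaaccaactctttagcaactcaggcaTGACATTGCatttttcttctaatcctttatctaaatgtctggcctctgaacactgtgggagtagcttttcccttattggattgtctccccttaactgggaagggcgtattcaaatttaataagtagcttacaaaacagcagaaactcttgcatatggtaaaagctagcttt
Gstk1: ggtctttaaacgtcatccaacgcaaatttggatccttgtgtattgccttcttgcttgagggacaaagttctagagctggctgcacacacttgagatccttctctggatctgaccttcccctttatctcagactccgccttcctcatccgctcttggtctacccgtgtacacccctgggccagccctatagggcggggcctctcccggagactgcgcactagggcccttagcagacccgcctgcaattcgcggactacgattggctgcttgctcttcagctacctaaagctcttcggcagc
Gsto1: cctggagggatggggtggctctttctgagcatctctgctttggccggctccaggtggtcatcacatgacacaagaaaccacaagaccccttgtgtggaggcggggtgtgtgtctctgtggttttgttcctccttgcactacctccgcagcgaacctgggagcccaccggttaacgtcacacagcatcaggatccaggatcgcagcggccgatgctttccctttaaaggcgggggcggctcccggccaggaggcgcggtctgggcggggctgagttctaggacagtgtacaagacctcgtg
Gsto2: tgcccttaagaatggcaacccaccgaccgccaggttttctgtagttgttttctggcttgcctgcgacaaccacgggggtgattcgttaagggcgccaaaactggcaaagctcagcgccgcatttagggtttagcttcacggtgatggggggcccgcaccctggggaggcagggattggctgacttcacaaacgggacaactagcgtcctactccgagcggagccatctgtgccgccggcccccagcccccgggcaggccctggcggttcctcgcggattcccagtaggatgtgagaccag
The promoter of Gsta3 held TGACATTGC, with its first base at -121 from the start site. The promoters of Gstk1, Gsto1 and Gsto2 held none of these letters in this window. The G and C content was 41% for Gsta3 and 55.3%, 60.7% and 61.7% for Gstk1, Gsto1 and Gsto2.

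Promoters were found for 58 of the 66 genes, with 70 entries since some genes have several start sites. The antioxidant response element core was in 4 of these 70 promoters (5.71%), against 12.4% of all 32851 mouse promoters of the same length. All 4 were among the 32 promoters of tested genes, a share of 12.5%. Its other matches were TGACCACGC at -42 in Gstm5, TGACAAAGC at -129 of a start site of Gstm7 and GCACGGTCA, on the other strand, at -56 in Mgst1. The Ah receptor core was in 13 of the 70 (18.6%) and 7 of the 32 (21.9%), against 32.4% of all promoters.

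Gsto1, an omega-class glutathione transferase known for reducing dehydroascorbate and methylated arsenic, had the highest mean RPKM of the 25 genes over the scr and knockdown libraries. Its RPKM was 61.9 and 118 in scr, 315, 397 and 381 in knockdown, and 108 in wt. Every knockdown library was above both scr libraries, and wt lay between the scr libraries. Gsto1 rose by a log2 fold change of 2.00 (n = 3 against 2 libraries, SE 0.308, adjusted p or FDR 0.0190 from the edgeR quasi-likelihood test). Its neighbour Gsto2, which is known to reduce dehydroascorbate, starts 757 bases past the end of Gsto1 on chromosome 19 (Gsto1, 47854973 to 47864788, and Gsto2, 47865545 to 47886305). Gsto2 had 4 and 3 counts in scr, 57, 137 and 100 in knockdown and 8 in wt. The groups did not overlap, and Gsto2 rose by a log2 fold change of 4.59 (SE 0.587, FDR 0.0133). Its mean RPKM was 0.0865 ± 0.0155 (SD, n = 2) in scr and 2.17 ± 0.874 (SD, n = 3) in knockdown. No stretch of 50 bases in the annotated transcripts of either gene was found in another gene.

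Gstk1 (chromosome 6, 42245935 to 42250441), the kappa-class transferase of mitochondria and peroxisomes, had 0 counts in both scr libraries. It had 282, 365 and 425 counts in knockdown, an RPKM of 9.60, 12.1 and 13.8, and 2 counts in wt. Taking 3 counts per library as the most that a count of 0 allows, its mean RPKM was at least 106-fold higher in knockdown than in scr, or 6.73 on the log2 scale, and its FDR was 0.00549 in the edgeR quasi-likelihood test. Such limits cover counting error only. Gstk1 was called higher in all 13 distinct alternative analyses of these data. The gene shared no stretch of 50 bases with another gene.

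Gsta3 (chromosome 1, 21240585 to 21265575) is an alpha-class transferase known in mouse liver for conjugating the epoxide of aflatoxin. Its RPKM was 16.5 and 190 in scr, 2.67, 1.40 and 1.78 in knockdown and 60.4 in wt. All 3 knockdown libraries were below both scr libraries, although the scr libraries themselves differed by 11.5-fold. Gsta3 fell by a log2 fold change of -5.73 (n = 3 against 2 libraries, SE 1.02, FDR 0.0276 from the edgeR quasi-likelihood test). The fitted change was -3.09 without scr 50-1 (FDR 0.0124) and -6.60 without scr 25-2 (FDR 0.00149).

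The calls of 3 of these genes were lost when single knockdown libraries were left out. Without knockdown 25-3, 50-2 or 50-5, the FDR of Gsta3 was 0.102, 0.125 and 0.102, with log2 fold changes of -6.02, -5.53 and -5.67. That of Gsto1 was 0.0670, 0.0854 and 0.0681, with log2 fold changes of 2.10, 1.95 and 1.97. The FDR of Gsto2 was 0.0551 without knockdown 50-2. Without knockdown 50-5, the analysis equals that of the 4 libraries printed in a gene table of the study, in which 3.01% of all genes were called. There 4 of 24 conjugation enzyme genes were called, Gstk1 and Gsto2 higher and Gstm1 and Gstm2 lower. Leaving out knockdown 25-3 left Gstk1 and Gsto2 called, when 2.24% of all genes were called, and leaving out knockdown 50-2 left Gstk1, when 1.14% were.

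**Figure D2:**
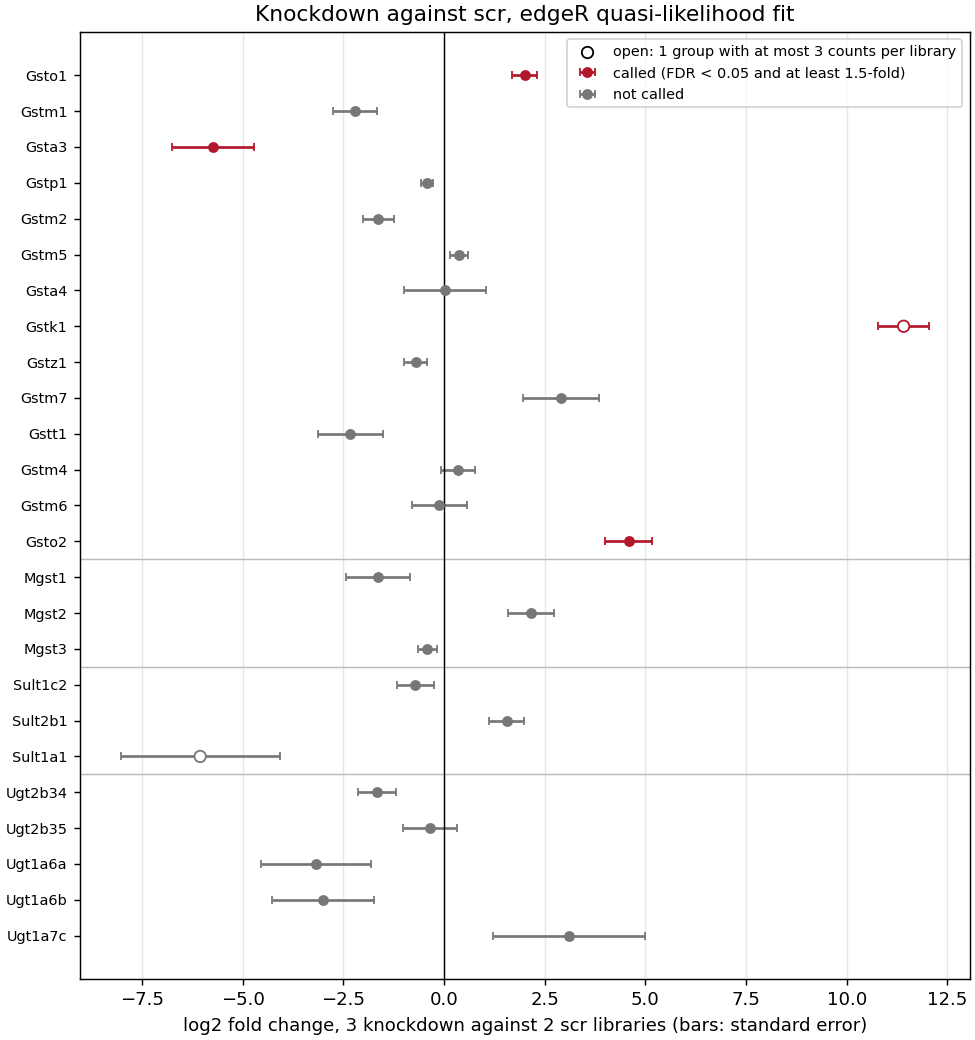
Log2 fold change of knockdown (n = 3) against scr (n = 2) for the 25 tested genes, with bars for the standard error, red for called genes and grey for the rest. Open symbols mark Gstk1 and Sult1a1, where a group had at most 3 counts in each library, so that the fitted size depends on the prior count and is no bound.

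None of the other 10 GST genes was called in the edgeR quasi-likelihood test. In this class of 14, however, 9 had an unadjusted p under 0.05 and DESeq2 called 8. Over all genes these shares were 31.5% and 20.1%. The mu-class genes lie in 1 cluster of 149 kb on chromosome 3, from 107895854 to 108044859, in the order Gstm5, Gstm7, Gstm6, Gstm3, Gstm2, Gstm1 and Gstm4. They conjugate a broad range of epoxides and quinones. Gstm1 had an RPKM of 72.0 and 158 in scr, 16.8, 15.7 and 42.3 in knockdown and 74.2 in wt. Gstm2, beside it, had 21.5 and 29.6 in scr, 6.08, 6.24 and 12.5 in knockdown and 26.6 in wt. For both genes all knockdown libraries were below both scr libraries, and knockdown 50-5 was the highest of the 3. The log2 fold change was -2.21 for Gstm1 (SE 0.548, FDR 0.0580) and -1.63 for Gstm2 (SE 0.382, FDR 0.0515), and neither passed the FDR limit of the edgeR quasi-likelihood test. That of Gstm1 was -1.54 without scr 50-1 (FDR 0.131), -2.66 without scr 25-2 (FDR 0.0292) and -2.84 without knockdown 50-5 (FDR 0.0499). DESeq2 called both lower, with an FDR of 0.000346 and 0.00127. Gstm1 shared 18.9% of its stretches of 50 bases with other genes, most of them with a pseudogene of Gstm2, and Gstm2 shared 5.66%, so their counts are less certain than those of genes with no such copy.

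Among the other mu-class genes, Gstm7 had an RPKM of 0.652 and 1.93 in scr, 4.62, 4.37 and 19.98 in knockdown and 3.18 in wt. All knockdown libraries were above both scr libraries, and knockdown 50-5 stood well above the others. Its log2 fold change was 2.90 (SE 0.942, FDR 0.102), 1.79 without knockdown 50-5, 2.33 without scr 25-2 and 3.87 without scr 50-1. Gstm5, at 13.9 and 11.3 in scr and 16.6, 13.8 and 18.7 in knockdown, overlapped between the groups (0.37, FDR 0.323). Gstm4 and Gstm6 overlapped as well, with log2 fold changes of 0.36 and -0.12. Both turned with the scr library, to 1.09 and 1.39 without scr 50-1 and -0.12 and -0.84 without scr 25-2, none of them called. Gstm3 was not tested and had at most 11 counts. The fitted changes of Gstm2 and Gstm7 thus had opposite signs within this cluster, and the difference between them was not tested.

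Gstp1, the pi-class transferase known from many tumours, varied little within the groups. It had an RPKM of 35.4 and 36.2 in scr, 24.8, 27.8 and 28.3 in knockdown and 32.1 in wt. All knockdown libraries lay below both scr libraries by a small margin, with a log2 fold change of -0.42 (SE 0.150, FDR 0.123). Gstp1 shares 33.7% of its stretches of 50 bases with Gstp2, which had at most 15 counts. Gstz1, the maleylacetoacetate isomerase of tyrosine breakdown, had 10.8 and 5.93 in scr, 5.28, 4.86 and 5.44 in knockdown and 10.5 in wt (-0.70, FDR 0.164). Its groups did not overlap, but scr 50-1 came close to the knockdown libraries. The log2 fold change of Gstz1 was -0.19 without scr 25-2 and -1.07 without scr 50-1. Gstt1, the theta-class transferase that acts on small halogenated compounds, had 2.71 and 16.8 in scr, 2.70, 2.25 and 0.916 in knockdown and 13.5 in wt (-2.33, FDR 0.117). Knockdown 25-3 was thus at the level of scr 25-2, and the log2 fold change was -3.10 without scr 25-2 (FDR 0.0177) and -0.49 without scr 50-1 (FDR 0.622). Gsta4, which conjugates the lipid peroxidation product hydroxynonenal, had 0.745 and 14.3 in scr, 9.55, 8.01 and 5.36 in knockdown and 8.25 in wt. All 3 knockdown libraries and wt lay between the scr libraries, and the log2 fold change of 0.016 (SE 1.02, FDR 0.995) averages an increase against scr 25-2 and a decrease against scr 50-1. It was 3.34 without scr 50-1 (FDR 0.0218) and -0.90 without scr 25-2 (FDR 0.132).

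The microsomal transferases are membrane proteins of the endoplasmic reticulum and mitochondria, and all 3 were abundant. None was called by the edgeR quasi-likelihood test, 1 had an unadjusted p under 0.05, and DESeq2 called 1, Mgst2. Over all genes, 31.5% had such a p and DESeq2 called 20.1%. Mgst1, which also reduces lipid hydroperoxides, had an RPKM of 11.7 and 103 in scr, 14.6, 19.5 and 21.3 in knockdown and 52.3 in wt. The knockdown libraries lay between the scr libraries and close to scr 25-2, with a log2 fold change of -1.64 (SE 0.788, FDR 0.217). It was -2.47 without scr 25-2 (FDR 0.00418) and 0.64 without scr 50-1 (FDR 0.170), and thus had opposite signs. Mgst2, known for its part in making cysteinyl leukotrienes, had 3.50 and 12.8 in scr, 31.4, 34.1 and 44.2 in knockdown and 61.2 in wt. All knockdown libraries were above both scr libraries, but wt was higher than any of them. Its log2 fold change was 2.16 (SE 0.565, FDR 0.0649), 1.51 without scr 25-2 (FDR 0.0239), 3.37 without scr 50-1 (FDR 0.00878) and 0.51 (FDR 0.717) when wt was added to the controls. Mgst3, which has glutathione peroxidase activity, had an RPKM of 22.0 and 24.6 in scr, 13.2, 19.4 and 20.2 in knockdown and 24.1 in wt (-0.41, FDR 0.277), and its groups did not overlap.

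The UGT genes gave 0 calls among 5 tested in the edgeR quasi-likelihood test. An unadjusted p under 0.05 was found for 1, and DESeq2 called 1, Ugt2b34, against 31.5% and 20.1% of all genes. The Ugt2 cluster on chromosome 5 holds 10 genes, of which Ugt2b34 and Ugt2b35 were tested. Enzymes of the UGT2B subfamily glucuronidate steroids, bile acids and drugs. Ugt2b34 (86889770 to 86906937) was the main UGT transcript, at 24.6 and 82.0 RPKM in scr, 18.9, 14.2 and 17.9 in knockdown and 38.9 in wt. All knockdown libraries were below both scr libraries, by little in the case of scr 25-2. Its log2 fold change was -1.66 (SE 0.475, FDR 0.0778), -2.27 without scr 25-2 (FDR 0.00381) and -0.55 without scr 50-1 (FDR 0.135). Ugt2b35 had 3.61 and 12.8 in scr, 11.3, 3.89 and 4.21 in knockdown and 13.0 in wt. Knockdown 25-3 was close to scr 50-1 and the other two were close to scr 25-2, and the log2 fold change was -0.35 (SE 0.679, FDR 0.764), with 0.83 without scr 50-1 and -0.98 without scr 25-2.

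The Ugt1a locus on chromosome 1 (88055411 to 88220002) makes several enzymes by joining alternative first exons to shared last exons, and Ugt1a1 is the enzyme that conjugates bilirubin. Of its 8 rows in the deposited files, 7 end at the same base, and Ugt1a10 had 0 counts in all libraries while Ugt1a6a had up to 256. Reads in the shared exons were therefore not credited to every row, and RPKM values, which use the full exon length, are not comparable between Ugt1a genes. Ugt1a6a and Ugt1a6b, whose products conjugate simple phenols, share 52.1% and 79.8% of their stretches of 50 bases with other genes, most of them with Ugt1a7c and with each other. Ugt1a6a had 44 counts in wt, 5 and 256 in scr and 13, 8 and 28 in knockdown. Ugt1a6b had 37 in wt, 5 and 171 in scr and 12, 6 and 19 in knockdown. Both were high in scr 50-1 and low in scr 25-2 and in knockdown (-3.18, FDR 0.176, and -3.01, FDR 0.169), and without scr 25-2 the values were -4.15 (FDR 0.0107) and -3.96 (FDR 0.00969). Ugt1a7c had 161 counts in knockdown 50-5 and at most 12 in every other library (3.09, FDR 0.315). Its log2 fold change was 2.10 without scr 25-2 and 8.84 without scr 50-1, where the scr count left was 0. Without knockdown 50-5 it was not tested. Ugt1a1, Ugt1a2 and Ugt1a5 had at most 14, 15 and 28 counts, all of these highest values in scr 50-1.

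Sulfotransferases were the least expressed class, with 3 of 21 genes tested and 0 called in the edgeR quasi-likelihood test. An unadjusted p under 0.05 was found for 2, and DESeq2 called 2, Sult1a1 lower and Sult2b1 higher. The shares over all genes were 31.5% and 20.1%. Sult1c2 was the most abundant, at 8.91 and 9.58 RPKM in scr, 3.72, 3.89 and 9.39 in knockdown and 6.70 in wt. Knockdown 50-5 was at the level of scr and the other 2 were below it (-0.71, FDR 0.336). Without knockdown 50-5 the log2 fold change was -1.30 (FDR 0.0646). Sult2b1, which sulfates cholesterol, had 0.369 and 0.524 in scr, 0.901, 1.45 and 1.64 in knockdown and 0.338 in wt (1.56, FDR 0.0726), and its groups did not overlap. Sult1a1, the main phenol sulfotransferase of liver, had 95 counts in scr 25-2, 0 in scr 50-1, 1, 1 and 0 in knockdown and 39 in wt (FDR 0.103). It was detected in scr 25-2 and wt but not in scr 50-1.

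The genes that were not tested were weakly expressed or silent. The 12 genes at 0 in all libraries were Sult2a2, Sult2a3, Sult2a5, Sult2a6, Sult2a7, Sult3a1, Ugt1a10, Ugt2a1, Ugt2a2, Ugt2a3, Ugt2b38 and Ugt3a2. In total counts of 25586301 to 33119710, a count of 0 allows up to 3 counts per library. The Sult2a cluster on chromosome 7, whose enzymes sulfate bile acids and steroids, had 0 of 8 genes tested. Those with at most 3 counts in any library were Gsta1, Gsta2, Gstp3, Gstt3, Gstt4, Sult1c1, Sult2a4, Sult2a8, Sult4a1, Sult5a1, Sult6b2, Ugt1a9 and Ugt3a1. Several genes at 0 or with at most 3 counts share many stretches of 50 bases with other genes. Among them are Ugt2a1 (97.0%), Ugt2a2 (93.6%), Gsta1 (90.5%), Ugt1a10 (63.0%) and Sult2a2 (62.1%), so their counts, also those of 0, are uncertain. Sult3a2 was over an RPKM of 1 only in wt, with 25 counts there, 1 and 2 in scr and 20, 15 and 21 in knockdown. Several others had most of their counts in scr 50-1. Sult1e1, the oestrogen sulfotransferase, had 29 counts there and at most 2 elsewhere, and Sult1d1 had 58 there and 14 in scr 25-2, with at most 2 in knockdown. Ugt2b36 had 42 counts in wt, 47 and 19 in scr and 14, 3 and 8 in knockdown. The remaining genes, Gstm3, Gstp2, Gstt2, Sult1b1, Sult2a1, Sult6b1, Ugt1a1, Ugt1a2, Ugt1a5, Ugt2b1, Ugt2b5 and Ugt2b37, had at most 44 counts in any library.

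The scr libraries differed from each other in many of these genes. Of the 21 tested genes with counts in both scr libraries and at least 10 in 1 of them, 13 (61.9%) differed by at least 2-fold between scr 25-2 and scr 50-1, against 12.8% of 11190 such genes overall. All 13 were higher in scr 50-1, while over all genes 770 were higher in scr 50-1 and 657 in scr 25-2. The 13 were Gsta3, Gsta4, Gstm1, Gstm4, Gstm6, Gstm7, Gstt1, Mgst1, Mgst2, Ugt1a6a, Ugt1a6b, Ugt2b34 and Ugt2b35. The differences included 11.5-fold for Gsta3, 19.2-fold for Gsta4 and 8.77-fold for Mgst1, and were 52.9-fold for Ugt1a6a and 35.3-fold for Ugt1a6b, each of which had 5 counts in scr 25-2. The median absolute difference between the scr libraries was 1.56 on the log2 scale over the 21 genes and 0.324 over all genes. Each scr group value is 1 library, so this comparison has no replicate check. Within the knockdown group, the median range over 3 libraries was 0.821 for the 25 genes and 0.323 for all genes on the log2(RPKM + 0.1) scale, and 9 of the 25 ranged over more than 1, as did 8.38% of all genes.

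Because of this spread, the direction of many genes depended on the scr library taken as reference. Against scr 25-2, the mean of the knockdown libraries was at least 1.5-fold lower for 6 of the 25 genes and at least 1.5-fold higher for 13, with a median difference of 0.63 on the log2(RPKM + 0.1) scale. Against scr 50-1, it was lower for 12 and higher for 7, with a median of -0.50. Over all genes the shares were 15.7% lower and 16.2% higher against scr 25-2, and 18.5% and 18.0% against scr 50-1. Fitted without scr 25-2, the edgeR quasi-likelihood test called 12 of 24 genes, 4 higher and 8 lower, when 19.9% of all genes were called. Without scr 50-1 it called 8 of 23, 5 higher and 3 lower, when 11.3% of all genes were called. The median log2 fold change was -0.62 in the former and 0.64 in the latter. The lone scr library is assumed in these fits to vary like the knockdown libraries. Gsta3 was called lower, and Gstk1, Gsto1, Gsto2 and Mgst2 higher, in both fits, which share their knockdown libraries. Gstm1, Gstm2, Gstt1, Mgst1 and Ugt2b34 were called, all lower, without scr 25-2 but not without scr 50-1. Gsta4 was called higher, and Gstz1 lower, without scr 50-1 but not without scr 25-2. Ugt1a6a and Ugt1a6b were called lower without scr 25-2 and were not tested without scr 50-1, and Sult1a1 was called lower without scr 50-1 and was not tested without scr 25-2.

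**Figure D3:**
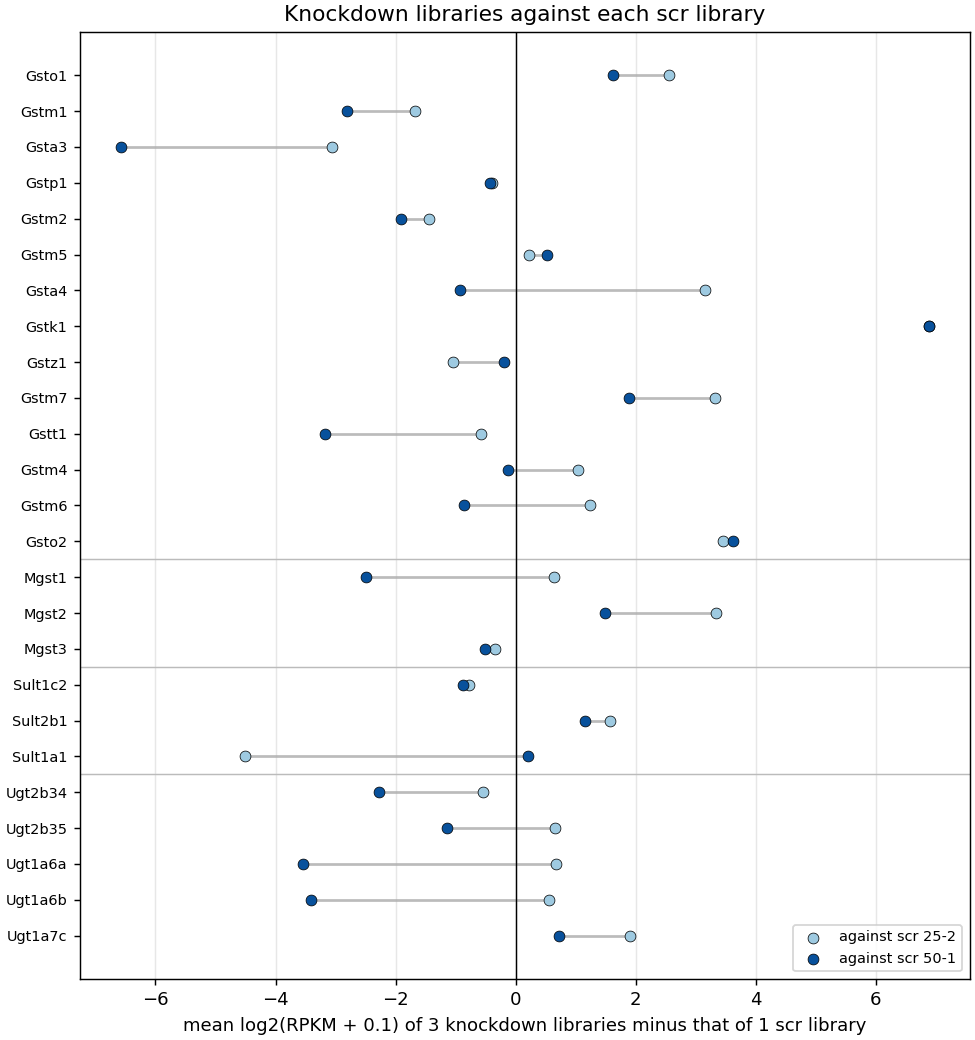
Mean log2(RPKM + 0.1) of the 3 knockdown libraries minus that of scr 25-2 (light circles) and minus that of scr 50-1 (dark circles), for the 25 tested genes. The circles fall on opposite sides of 0 for Gsta4, Gstm4, Gstm6, Mgst1, Sult1a1, Ugt2b35, Ugt1a6a and Ugt1a6b, and on the same side for the 4 called genes.

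In all, the 3 knockdown libraries lay below both scr libraries for 8 of the 25 genes, above both for 6, between them for 7 and mixed for 4. Over all genes the groups did not overlap for 50.2%, with 24.5% below, 25.7% above, 11.5% between and 38.3% mixed. The share of conjugation enzyme genes whose groups did not overlap, 14 of 25, was thus near the background. Those lying between the scr libraries were Gsta4, Gstm6, Mgst1, Sult1a1, Ugt1a6a, Ugt1a6b and Ugt2b35. The wt library lay within the range of the scr libraries for 16 of the 25 genes, below it for 3 (Gstp1, Sult1c2 and Sult2b1) and above it for 6 (Gstk1, Gstm4, Gstm7, Gsto2, Mgst2 and Ugt2b35). Over all genes it lay within that range for 4343 of 11577.

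Summed over all 66 genes, RPKM was 559 in wt, 318 and 845 in scr, and 516, 599 and 660 in knockdown, so the knockdown libraries lay between the scr libraries. The make-up of the sum differed more than its size. The GST sum was 239 and 590 in scr, 357 in wt and 420, 501 and 538 in knockdown, between the scr libraries. Gsto1 made up 25.9% and 20.1% of the GST sum in scr, 30.4% in wt, and 75.1%, 79.2% and 70.7% in knockdown. Without Gsto1, the GST sum was 177 and 471 in scr, 249 in wt and 104, 104 and 158 in knockdown, below both scr libraries. Gsto1 was left out for its mean RPKM over scr and knockdown, to which its rise in knockdown adds. Leaving it out therefore lowers the knockdown sums most. Gstm1 made up 30.2% and 26.7% of the GST sum in scr and 3.14% to 7.86% in knockdown, and Gsta3 6.90% and 32.2% in scr and 0.280% to 0.637% in knockdown. The UGT sum was 29.5 and 102 in scr and 31.05, 18.5 and 24.5 in knockdown, of which Ugt2b34 made up 60.8% to 83.2%. The MGST sum was 37.2 and 140 in scr and 59.3, 73.1 and 85.7 in knockdown. The SULT sum was 12.5 and 12.6 in scr and 5.68, 6.25 and 12.04 in knockdown.

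**Figure D4:**
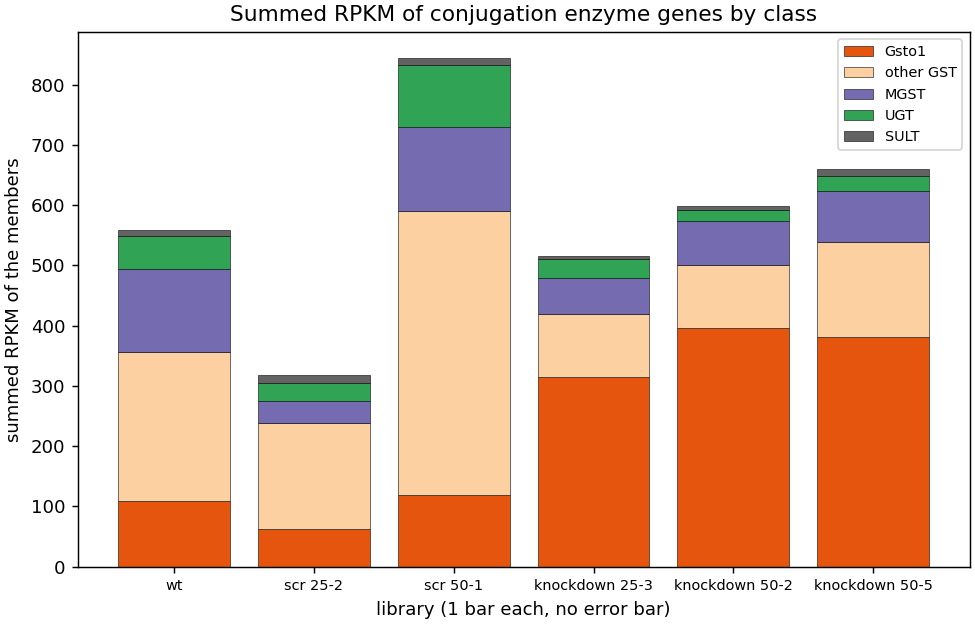
Summed RPKM of the conjugation enzyme genes in each library, stacked by class with Gsto1 shown apart from the other GST genes, 1 bar per library and no error bar. Gsto1 takes 315 to 397 RPKM in knockdown and 61.9 to 118 in wt and scr, and the other GST genes take 104 to 158 in knockdown against 177 and 471 in scr.

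Genes that supply the donors of conjugation were read from lists of known members. Over all genes tested, 10.6% were called, and 20.1% by DESeq2. For UDP-glucuronate, 2 of 4 tested genes were called. Ugp2, which makes UDP-glucose, fell, with an RPKM of 209 and 221 in scr, 150, 122 and 124 in knockdown and 286 in wt (log2 fold change -0.71, FDR 0.0359, edgeR quasi-likelihood test). Slc35d1, the carrier of UDP-glucuronate into the endoplasmic reticulum, rose, from 4.92 and 7.86 in scr to 15.5, 18.0 and 11.5 in knockdown, with 5.35 in wt (1.22, FDR 0.0496). For PAPS, 2 of 6 were called, both higher. Papss2, a PAPS synthase, had 0.609 and 1.20 in scr, 4.41, 7.58 and 10.2 in knockdown and 0.879 in wt (3.02, FDR 0.0230). Impad1, a phosphatase that clears the by-product of sulfation in the Golgi, had 36.05 and 36.6 in scr, 68.2, 64.1 and 81.2 in knockdown and 38.6 in wt (0.96, FDR 0.0218). For glutathione, 0 of 11 tested genes were called by the edgeR quasi-likelihood test, 2 had an unadjusted p under 0.05, and DESeq2 called 1, Ggct, higher.

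As background for the next lists, 10.6% of all tested genes were called, and 20.1% by DESeq2. Among genes of other conjugations, 1 of 5 tested was called. Glyat, which joins glycine to acyl groups, rose, with an RPKM of 1.24 and 0.456 in scr, 4.57, 5.03 and 3.07 in knockdown and 1.67 in wt (2.29, FDR 0.0497). Among those of deconjugation and mercapturate formation, 1 of 6 was called. Ephx2, the soluble epoxide hydrolase, rose from 0.328 and 0.0407 in scr to 3.49, 3.89 and 4.24 in knockdown, with 0.222 in wt (4.36, FDR 0.0279). DESeq2 called Ephx2 and also Ephx1, lower, which had 89.1 and 226 in scr, 31.7, 43.2 and 68.0 in knockdown and 85.7 in wt (-1.73, FDR 0.0706 in the edgeR quasi-likelihood test). The symbol Sts of this list was absent from the deposited counts. Among 7 tested export pumps, Abcg2 rose from 4.85 and 1.34 in scr to 18.4, 17.3 and 19.9 in knockdown, with 7.97 in wt (2.57, FDR 0.0417). Abcc5 fell from 62.2 and 48.1 in scr to 30.3, 27.2 and 35.2 in knockdown (-0.85, FDR 0.0429), but wt, at 36.2, was below both scr libraries and close to knockdown. With wt among the controls neither was called (1.98, FDR 0.0515 for Abcg2 and -0.67, FDR 0.0853 for Abcc5). Both pumps are known to carry conjugates or drugs out of cells. DESeq2 called both and Abcc1, higher (0.79, FDR 0.103 in the edgeR quasi-likelihood test). Without scr 25-2 and without scr 50-1, the log2 fold change was 6.52 and 3.54 for Ephx2, 3.80 and 1.92 for Abcg2, 3.21 and 1.75 for Glyat, 2.62 and 3.59 for Papss2, and 0.94 and 1.60 for Slc35d1. Over 13 distinct alternative analyses, each of these 8 genes and Bach1 kept its call in 7 to 11. Without knockdown 50-2 or 50-5 none of the 9 was called, and without knockdown 25-3 Papss2 alone was. With the 25 or 50 of the labels as a term, Abcc5, Slc35d1, Glyat and Ugp2 lost their calls (FDR 0.0582 to 0.0769, edgeR quasi-likelihood test). Abcc5 and Slc35d1 were not called without scr 25-2, nor Glyat and Ugp2 without scr 50-1.

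Of the 21 listed regulators, 17 were tested and 1 was called, against 10.6% of all genes. Bach1, a repressor that competes with Nrf2 for antioxidant response elements, fell from an RPKM of 9.14 and 13.9 in scr to 3.89, 4.54 and 5.42 in knockdown, with 8.58 in wt (-1.33, FDR 0.0266, edgeR quasi-likelihood test). DESeq2 called Bach1 and Foxa1 lower, and 20.1% of all genes in either direction. Between the scr libraries, the genes of these lists differed both ways. By the 2-fold rule used above, 2 of 11 glutathione genes were higher in scr 50-1, Gclc, the catalytic subunit of glutathione synthesis (22.2 in scr 25-2 and 77.2 in scr 50-1), and the cystine carrier Slc7a11 (10.7 and 35.6), while Cth was higher in scr 25-2. Of 7 export pumps Abcc2 and Abcc4 were higher in scr 50-1 and Abcg2 in scr 25-2. Ephx1, the microsomal epoxide hydrolase, was higher in scr 50-1 and Ephx2 in scr 25-2. Among the regulators Foxa1 was higher in scr 50-1 and Hnf4a in scr 25-2. Nr1i2, the pregnane X receptor, was at 0 in all 6 libraries and Nr1i3, the constitutive androstane receptor, was at 0.515 to 0.913.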

How the data were processed

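RNA-seq libraries of Hepa1-6 cells were made after ribosomal RNA depletion. The authors mapped single reads to mm10 by TopHat2, took read counts for each RefSeq gene by HTSeq and deposited the raw counts. The version of HTSeq differs between sources, and the submitters' processing notes name bcl2fastq 2.18.0.12 and HTSeq 0.6.1p1. The strand setting is not given in the sources used here, so counts of overlapping, antisense and near-identical genes are uncertain. RPKM values, which the authors scaled by TMM in edgeR, were deposited beside the counts, and a check showed that each equals the count over exon length times a factor fixed within a library. Library columns were matched by name, and 0 were left unmatched. The authors' own gene table was used only to see which 4 libraries it prints.

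Counts of 3 knockdown and 2 scr libraries, grouped by the labels, were tested with edgeR 4.0.16 in R 4.3.3 (TMM, quasi-likelihood test, Benjamini-Hochberg over the 11577 genes that exceeded an RPKM of 1 in any of the 5). The thresholds, a change of at least 1.5-fold and an FDR below 0.05, follow the study's methods. Standard errors are the absolute log2 fold change over the square root of F. The common biological coefficient of variation was 0.272. The test was checked on simulated counts. Total counts were 25586301 to 33119710 per library, and counting error was small beside the spread between libraries except for genes with few counts.

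The genes to name were called members, the 12 members with the highest mean RPKM, called genes of 7 lists (donor supply, other conjugation, deconjugation, export, regulators) and Midn, and all other tested members are described as well. The members and lists were chosen with earlier results of these data known. Alternatives were DESeq2 1.42.0, RLE size factors, other filters, limma 3.58.1 on log2(RPKM + 1) and log2(RPKM + 0.1), other sets of libraries and a term for the 25 or 50 of the labels. The wt library entered only in 1 alternative. Stretches of 50 bases were compared over GENCODE transcripts, and promoters came from RefSeq (GRCm38.p6). Protein sequences were not used here. Results for 1 listed regulator and 1 searched motif are not reported here. Tables and plots were made with pandas 2.3.3 and matplotlib 3.10.9 in Python 3.11.15.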

Additional observations from a re-analysis of the deposited data

How the results depend on the processing

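The count of called conjugation enzyme genes, 4 of 25, was 4 with RLE size factors, 6 with limma at either pseudocount, 12 with DESeq2, 8 of 54 with no filter on low values, 7 of 30 with filterByExpr and 7 of 26 with wt among the controls, and ranged from 1 to 12 with single libraries left out. With the 25 or 50 of the labels as a term (replicate block by label prefix) it was 3, and Gsta3 was no longer called (-5.37, FDR 0.0609 in the edgeR quasi-likelihood test). No whole replicate label is shared between the groups, and this term uses the labels' first number alone. Over every gene of the series tested, the calls numbered 1230 of 11577 in the main analysis, 1216 with RLE size factors, 1159 and 1201 with limma, 2322 with DESeq2, 1367 of 18673 with no filter, 1480 of 12864 with filterByExpr, 1648 of 11647 with wt added, 807 with the label term, 346 for the 4 libraries of the study's table and 131 to 2273 with single libraries left out. Midn lay between -1.49 and -1.24 with single libraries left out, and was not called without knockdown 50-2 (-1.38, FDR 0.0525). Gsta4 was -0.022 with wt added and -0.90 to 3.34 with single libraries left out, Mgst1 was -2.47 to 0.64, Ugt2b35 was -1.03 to 0.83, Gstm4 was -0.12 to 1.09 and Gstm6 was -0.84 to 1.39. The log2 ratio of knockdown to scr sums turned from 0.23 to -1.41 for GST and from 0.026 to -1.11 for the 66 conjugation enzyme genes without Gsto1, and from -0.29 to 0.79 for MGST without Mgst1. The cause of these changes was not tested beyond the library or gene left out. Over the 14 named conjugation enzyme genes, and counting identical analyses once, 146 alternative values kept direction and side of the threshold, 22 gained a call, 8 lost it and 6 turned direction. Depth limits the sizes of genes with few counts in a group, such as Gstk1, Gsto2 and Sult1a1.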
